A study of Mus musculus with 28 samples.

Results

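The 10 genes described here encode transcription factors that pattern the midbrain or mark its neurons: *Otx2*, *Pax7*, *Pou4f1*, *Gata2*, *Gata3*, *Sox14*, *Tal1*, *En2*, *Tcf7l2* and *Meis2*. They were picked by gene symbol from the 23038 genes measured, and all 10 were found. The study made a knock-in mouse in which the RNA-binding splicing factor NOVA1 carries the modern human amino acid at 1 position (*Nova1* hu/hu), and compared it with wild-type littermates (*Nova1* wt/wt) on a C57BL/6J background. Bulk RNA-seq was used here from late embryonic midbrain (E18.5, 6 libraries of each genotype), midbrain of young mice (P21, 4 of each) and P21 cortex (4 of each), which makes 28 libraries. The edited allele is carried in the germline by every cell of a hu/hu animal, and gene counts do not show which allele was transcribed. Whether midbrain and cortex libraries came from the same animals is not given in the sources used here.

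During development, OTX2 sets the forebrain and midbrain against the hindbrain, and the engrailed protein EN2 acts around the boundary between midbrain and hindbrain. In the midbrain, GATA2 is needed for the program that turns precursors into inhibitory (GABAergic) neurons, and GATA3, TAL1 and SOX14 act in those cells as they mature, while PAX7 and POU4F1 mark the dorsal roof that becomes the tectum. TCF7L2, an effector of Wnt signaling, is abundant in thalamic and midbrain neurons and is also made by oligodendrocyte precursors. MEIS2 is a homeodomain partner of PBX and other factors in tectum, but also in striatum and other forebrain regions.

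On the GRCm38.p6 assembly RefSeq places *Otx2* at chr14:48656781-48667644, *Pou4f1* at chr14:104461675-104468118, *Pax7* at chr4:139737059-139833530, *Tal1* at chr4:115056426-115071755, *Gata2* at chr6:88193891-88207032, *Gata3* at chr2:9857078-9887953, *Meis2* at chr2:115861264-116067537, *Sox14* at chr9:99874106-99876170, *En2* at chr5:28165696-28172190 and *Tcf7l2* at chr19:55741797-55933659. The values below count reads over all exons of each gene.

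The promoters of 3 factors of the GABAergic program are shown because the levels of *Gata2*, *Tal1* and *Sox14* moved by unequal amounts with age, as described below. Each is the 250 bases before a RefSeq start site on GRCm38.p6, the assembly of the mm10 build used by the authors, written 5′ to 3′ on the gene's strand: *Gata2* chr6:88193641-88193890 (plus strand, the first of 2 start sites), *Tal1* chr4:115056176-115056425 (plus strand, the first of 2) and *Sox14* chr9:99876171-99876420 (minus strand). Capitals mark AGATAA, a core that GATA factors bind, on either strand.
Gata2: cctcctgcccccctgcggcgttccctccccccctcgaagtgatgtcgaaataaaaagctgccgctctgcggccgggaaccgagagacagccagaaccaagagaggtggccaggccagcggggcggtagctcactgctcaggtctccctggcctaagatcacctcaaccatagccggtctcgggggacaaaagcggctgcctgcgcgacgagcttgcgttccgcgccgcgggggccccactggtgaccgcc
Tal1: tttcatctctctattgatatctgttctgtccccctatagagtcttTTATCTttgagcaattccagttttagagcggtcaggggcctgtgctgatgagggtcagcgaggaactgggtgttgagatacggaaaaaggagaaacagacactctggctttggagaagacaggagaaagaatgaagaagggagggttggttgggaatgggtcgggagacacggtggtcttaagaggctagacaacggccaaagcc
Sox14: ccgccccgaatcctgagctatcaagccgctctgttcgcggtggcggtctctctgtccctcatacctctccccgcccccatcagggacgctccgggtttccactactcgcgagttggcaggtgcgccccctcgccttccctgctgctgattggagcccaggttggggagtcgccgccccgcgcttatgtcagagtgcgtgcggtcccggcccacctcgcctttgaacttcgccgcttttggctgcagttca
The *Tal1* window held AGATAA once, on the minus strand, and the *Gata2* and *Sox14* windows did not hold these letters; 9.99% of all 32851 promoter windows of this length did. The *Gata2* and *Sox14* windows held 22 and 23 CpG dinucleotides, and the *Tal1* window 6, against a median of 6 over all windows. The window of the second *Tal1* start site, chr4:115057561-115057810, did not hold AGATAA and held 16 CpG, more than 74.6% of all windows, so that the contrast in both respects is that of the first *Tal1* window alone. The *Gata3* window, not shown, did not hold AGATAA and held 19 CpG, though *Gata3* and *Tal1* changed nearly equally with age (log2 fold changes of -1.45 and -1.43). A link between these windows and the changes with age was not tested. RefSeq start sites were found for 9 of the 10 genes, 15 windows in all, of which 13 held more CpG than that median, as 46.3% of all windows did.

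Library totals ranged from 18550922 to 45134998 counts. Levels are given as TPM (transcript abundance scaled to exon length and library, computed from the counts, so that genes can be compared), with the standard deviation (SD) over libraries. Fold changes and tests come from edgeR's quasi-likelihood test on counts with TMM scaling, fitted to all genes, with Benjamini-Hochberg adjustment over all genes tested, and a gene was called at p under 0.05 and adjusted p under 0.1. SE is the standard error of a log2 fold change. In bulk tissue, fewer cells of a type and less RNA per cell cannot be told apart. Marker sums followed the region labels: the summed TPM of 7 cortical excitatory neuron markers ranged from 1914 to 2122 in cortex and from 22.7 to 160 over both midbrain ages, and that of 7 midbrain neuron markers from 60.3 to 74.0 in cortex and from 242 to 403 in midbrain, with *Foxa2* at 0 in all 8 cortex libraries. Of those 7, 6 were at least 2-fold higher in P21 midbrain than in cortex, and *Nr4a2*, which cortex also makes, went against the label, with a mean of 9.25 TPM in P21 midbrain and 35.0 TPM in cortex. The dissections also held markers of neighbors: 6 striatal markers summed to between 708 and 869 TPM in cortex, and in P21 midbrain 7 hypothalamus markers summed to between 343 and 438 TPM (7.44 to 38.9 in cortex). In P21 midbrain 9 hindbrain and serotonin neuron markers summed to between 87.4 and 113 TPM. The largest parts were the serotonin neuron genes *Tph2* and *Slc6a4* (means of 40.9 and 35.9 TPM), so this sum does not by itself measure hindbrain tissue. The list also holds hindbrain genes of the homeobox clusters, which varied between P21 midbrain libraries. Among them were *Hoxb5* (mean 7.52 TPM, from 0.702 to 14.2), *Hoxa5* (3.37, from 0.391 to 6.70) and *Hoxb3* (3.19, from 1.11 to 4.44). Their cortex means were 0.00557, 0 and 0.00629 TPM. How much hindbrain tissue the midbrain dissections held was not tested.

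At P21, 9 of the 10 genes were higher in midbrain than in cortex and *Meis2* was lower. Of the 9, 8 were at least 2-fold higher, *Gata2* falling just short. Over all 16345 genes tested, 75.5% were called, 7.82% at least 2-fold higher and 7.59% at least 2-fold lower. *Pax7*, *Pou4f1*, *Gata3* and *Sox14* passed the count filter through their midbrain libraries alone, so their difference follows in part from having passed. The median log2 fold change of the 10 genes was 3.67, unchanged with *Sox14* set at its lower bound, against 0.00036 for all genes.

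**Figure D1:**
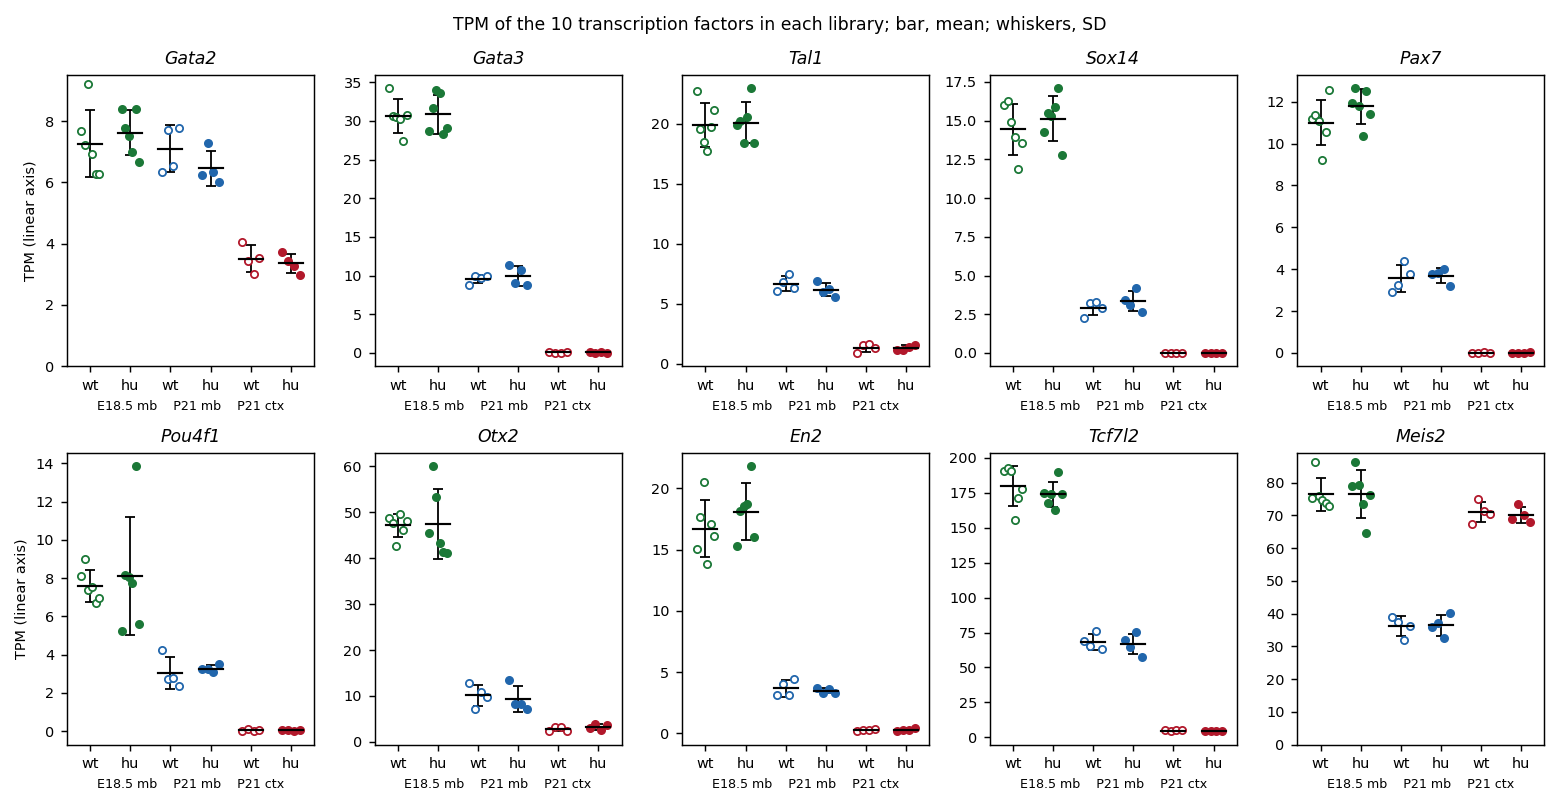
Level of each gene in TPM (vertical axes, linear, a separate scale for each gene) in all 28 libraries, 1 point per library, green for E18.5 midbrain, blue for P21 midbrain, red for cortex, wt/wt open and hu/hu filled; bars are means and whiskers SD. For 9 genes the red points sit at the bottom, *Meis2* cortex points (67.4 to 75.0 TPM) lie among the E18.5 midbrain points, and open and filled points of each tissue lie side by side.

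**Figure D2:**
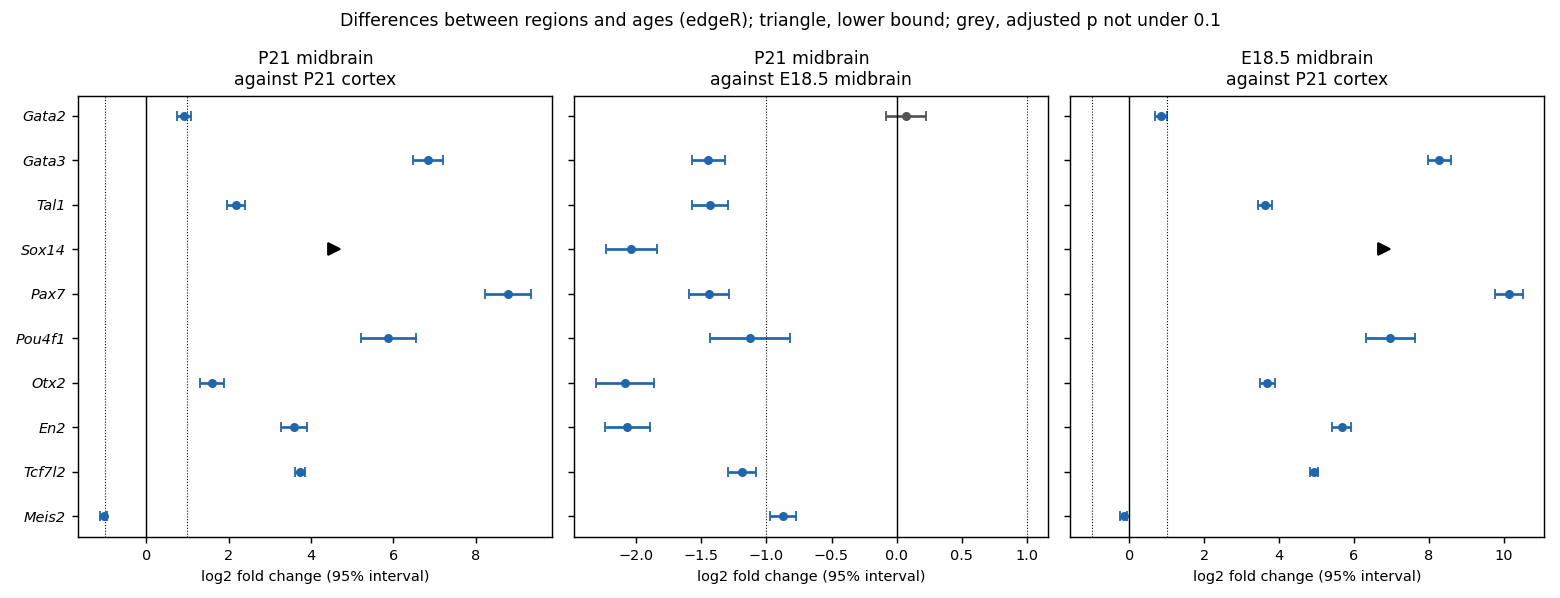
Log2 fold change (horizontal axes, points with 95% intervals) of each gene between P21 midbrain and P21 cortex (left), P21 and E18.5 midbrain (middle) and E18.5 midbrain and P21 cortex (right), from edgeR; solid lines mark no change, dotted lines 2-fold, triangles the lower bound for *Sox14*, and grey an adjusted p not under 0.1. All genes but *Gata2* lie left of 0 in the middle panel, and only *Meis2* lies left of 0 in the outer panels.

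Among the GABAergic factors, *Sox14*, an HMG-box factor of a subset of these neurons, had no count in any of the 8 cortex libraries. Its level in P21 midbrain was 2.29, 3.20, 3.27 and 2.89 TPM in the wt/wt libraries and 3.42, 3.09, 4.18 and 2.67 TPM in the hu/hu libraries. All 8 midbrain libraries were thus above all 8 cortex libraries. Against a floor of 3 counts per cortex library (0.133 TPM on average), *Sox14* was at least 23.5-fold higher in P21 midbrain (edgeR, adjusted p = 1.58e-12). The limit of the count filter given above holds for this p-value.

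*Gata3*, which follows *Gata2* in the midbrain program, had 8.84, 9.90, 9.75 and 9.90 TPM in wt/wt and 11.4, 9.04, 10.7 and 8.79 TPM in hu/hu P21 midbrain. In cortex it had 0.149, 0, 0.0562 and 0.0851 TPM in wt/wt and 0.124, 0.0521, 0.105 and 0.0576 TPM in hu/hu, that is 22 counts in 8 libraries against 2898 in midbrain. The groups did not overlap, and the ratio of the summed levels was 125.3 (95% exact interval from 82.6 to 200, which covers counting error only; edgeR, adjusted p = 3.70e-20). As for *Sox14*, the p-value has the limit of the count filter. *Gata3* exons overlap *Gm13256* on the opposite strand in the GENCODE annotation, and no source used here says whether strand was taken into account, so reads of the pair cannot be told apart. They also overlap *9230102O04Rik* on the same strand, which a strand setting would not separate.

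*Tal1*, a basic helix-loop-helix factor known from blood and endothelium as well as from these neurons, had 6.11, 6.85, 7.49 and 6.31 TPM in wt/wt and 6.90, 5.97, 6.23 and 5.60 TPM in hu/hu P21 midbrain. Cortex held 0.905, 1.54, 1.64 and 1.29 TPM in wt/wt and 1.18, 1.16, 1.43 and 1.59 TPM in hu/hu. The lowest midbrain library was above the highest cortex library, with a log2 fold change of 2.18 (SE 0.10, adjusted p = 5.45e-15). The summed TPM of 8 endothelial markers, all detected, overlapped between the regions (144 to 166 in P21 midbrain, 126 to 158 in cortex), but 6 of the 8 were called higher in midbrain and none lower, with a median log2 fold change of 0.15. The sum of 7 erythroid markers overlapped too (1515 to 2252 and 1353 to 2302).

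*Gata2*, also an endothelial and blood factor, differed least among the genes that were higher in midbrain. Its levels were 6.35, 7.72, 6.54 and 7.78 TPM in wt/wt and 6.22, 7.29, 6.32 and 6.0 TPM in hu/hu P21 midbrain, and 4.06, 3.44, 3.02 and 3.54 TPM in wt/wt and 3.72, 3.44, 3.27 and 2.98 TPM in hu/hu cortex. The groups did not overlap, and the log2 fold change was 0.91 (SE 0.08, adjusted p = 8.72e-10). The highest of the 8 endothelial markers was *Kdr*, at 0.31 (SE 0.05), and the part of endothelial cells in the differences of *Gata2* and *Tal1* was not tested.

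Both dorsal factors were close to absent from cortex. *Pax7*, a paired-box factor of the tectum, gave 1 count in each of 2 cortex libraries and none in the other 6. In P21 midbrain it had 2.92, 3.22, 4.39 and 3.75 TPM in wt/wt and 3.77, 3.83, 3.99 and 3.17 TPM in hu/hu. With 1435 against 2 counts the ratio was 682, with an exact counting interval from 189 to 5640. *Pou4f1*, a POU factor of tectal, habenular and sensory neurons, gave 6 counts in cortex and 450 in P21 midbrain, a ratio of 71.3 (32.5 to 195). Its midbrain levels were 4.22, 2.72, 2.79 and 2.37 TPM in wt/wt and 3.22, 3.23, 3.09 and 3.49 TPM in hu/hu, all above the highest cortex library (0.122 TPM). Both differences were called (edgeR, adjusted p = 2.02e-18 for *Pax7* and 1.11e-13 for *Pou4f1*), with the same limit of the count filter.

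Of the regional factors, *Otx2* had 12.7, 7.24, 10.8 and 9.76 TPM in wt/wt and 13.5, 8.25, 8.18 and 7.20 TPM in hu/hu P21 midbrain. Cortex held 2.31, 3.17, 3.29 and 2.47 TPM in wt/wt and 3.09, 3.83, 2.53 and 3.69 TPM in hu/hu. The regions did not overlap, and the log2 fold change was 1.59 (SE 0.14, adjusted p = 6.95e-10). *Otx2* is also made by the choroid plexus, whose 9 markers were all detected and summed to between 18.1 and 3072 TPM in P21 midbrain and between 1174 and 2230 TPM in cortex. The P21 midbrain library with the lowest choroid plexus sum (18.1 TPM, hu/hu replicate 3) had 8.18 TPM of *Otx2*, above every cortex library. This is a single library, and the part of choroid plexus in the *Otx2* difference was not tested. *Otx2* exons overlap *Otx2os1* on the opposite strand and *Gm49154* on the same strand, so both limits hold as for *Gata3*.

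*En2* had 3.11, 4.05, 3.10 and 4.43 TPM in wt/wt and 3.74, 3.32, 3.58 and 3.30 TPM in hu/hu P21 midbrain, against 0.163, 0.244, 0.281 and 0.335 TPM in wt/wt and 0.226, 0.308, 0.239 and 0.445 TPM in hu/hu cortex. No cortex library reached a midbrain library (log2 fold change 3.59, SE 0.15, adjusted p = 6.38e-16). Of 7 cerebellar markers, all detected, 4 were called at least 2-fold higher in P21 midbrain, among them *Gabra6* (log2 fold change 6.54, SE 0.89) and *Cbln1* (1.96, SE 0.05), and 2 were lower, *Neurod1* (-1.83, SE 0.11) and *Calb1* (-0.67, SE 0.04). Their summed TPM overlapped between P21 midbrain (141 to 179) and cortex (154 to 172), with *Calb1* the largest part of it (means of 88.4 and 134 TPM). Their part in the *En2* difference was not tested.

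*Tcf7l2* was the most abundant of the 10 genes in P21 midbrain, with 68.6, 65.2, 76.0 and 63.0 TPM in wt/wt and 69.6, 64.7, 75.2 and 57.7 TPM in hu/hu. Cortex held 4.96, 4.31, 5.12 and 5.01 TPM in wt/wt and 4.77, 4.77, 4.77 and 4.66 TPM in hu/hu. The regions were far apart (log2 fold change 3.74, SE 0.06, adjusted p = 5.21e-24). Markers of thalamus (539 to 637 TPM in P21 midbrain, 95.4 to 106 in cortex; all 7 detected) and of oligodendrocytes (20766 to 23257 and 6151 to 6890 TPM; all 10 detected) were higher in the same libraries, and their part in the *Tcf7l2* difference was not tested. The thalamus list shares *Slc17a6*, with a mean of 203 TPM in P21 midbrain, with the midbrain neuron list.

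*Meis2* went the other way. P21 midbrain had 38.9, 37.5, 31.9 and 36.3 TPM in wt/wt and 36.0, 37.2, 32.4 and 40.2 TPM in hu/hu, and cortex 67.4, 75.0, 71.4 and 70.3 TPM in wt/wt and 68.8, 73.5, 70.2 and 67.9 TPM in hu/hu. Every cortex library was above every midbrain library, and the log2 fold change of midbrain over cortex was -1.04 (SE 0.04, adjusted p = 2.83e-16). Striatal markers, 6 of 6 detected in both regions, summed to between 708 and 869 TPM in cortex and between 81.2 and 95.5 TPM in P21 midbrain, and their part in the *Meis2* difference was not tested.

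In TPM the 10 genes did not overlap between P21 midbrain and cortex in any case, whereas 37.9% of the genes with any count did not overlap between these groups. The order of mean levels in P21 midbrain was *Tcf7l2* (67.5 ± 6.16 TPM, SD, n = 8), *Meis2* (36.3 ± 2.87), *Gata3* (9.79 ± 0.921), *Otx2* (9.70 ± 2.43), *Gata2* (6.78 ± 0.707), *Tal1* (6.43 ± 0.606), *Pax7* (3.63 ± 0.488), *En2* (3.58 ± 0.472), *Pou4f1* (3.14 ± 0.562) and *Sox14* (3.13 ± 0.561). The ranges of *Gata3* and *Otx2*, of *Otx2* and *Gata2*, of *Gata2* and *Tal1*, and of the last 4 genes overlapped. In cortex *Meis2* stood first (70.6 ± 2.66 TPM, n = 8), followed by *Tcf7l2* (4.80 ± 0.248), *Gata2* (3.43 ± 0.357), *Otx2* (3.05 ± 0.565), *Tal1* (1.34 ± 0.254) and *En2* (0.280 ± 0.085), the ranges of *Gata2* and *Otx2* overlapping.

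Within midbrain, 9 of the 10 genes were lower at P21 than at E18.5, 8 of them at least 2-fold, and *Gata2* was not called. The median log2 fold change of the 10 genes was -1.44, against -0.02 for the 16330 genes tested, of which 85.4% were called, 14.7% at least 2-fold lower and 15.9% at least 2-fold higher. Age and any difference in handling between the E18.5 and P21 libraries cannot be told apart. Oligodendrocyte markers summed to between 128 and 199 TPM at E18.5, with *Opalin* at 0 in all 12 libraries, and to between 20766 and 23257 TPM at P21. Other marker sums differed between the ages as well, and they cannot tell more tissue from more RNA per cell. Hypothalamus markers summed to between 62.1 and 135 TPM at E18.5, below their P21 range. Of the 7, 6 were called higher at P21, and *Nkx2-1* was lower (means of 6.66 TPM at E18.5 and 1.57 TPM at P21). Hindbrain and serotonin neuron markers summed to between 49.2 and 64.7 TPM at E18.5, with 5 of 9 higher at P21 and 1 lower. The part of these cells and tissues in the lower levels of the 9 genes was not tested.

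*Otx2*, *En2* and *Sox14* fell by about 2 on the log2 scale. *Otx2* had a lowest, median and highest level of 42.6, 47.8 and 49.5 TPM in wt/wt and 41.2, 44.4 and 60.1 TPM in hu/hu E18.5 midbrain. No P21 library (7.20 to 13.5 TPM) came near the lowest E18.5 library, and the log2 fold change was -2.09 (SE 0.11, adjusted p = 2.66e-15). *En2* had 13.8, 16.6 and 20.5 TPM in wt/wt and 15.3, 18.4 and 21.8 TPM in hu/hu E18.5 midbrain, and fell by 2.07 on the log2 scale (SE 0.08, adjusted p = 1.86e-17). *Sox14* had 11.9, 14.4 and 16.3 TPM in wt/wt and 12.8, 15.4 and 17.1 TPM in hu/hu, and fell by 2.04 (SE 0.09, adjusted p = 2.49e-16). All 3 genes had E18.5 levels clear of their P21 range. Choroid plexus markers summed to between 53.7 and 3703 TPM at E18.5, with a median of 2366 TPM against 705 TPM at P21, and the E18.5 library with the lowest sum (hu/hu replicate 4) had 43.3 TPM of *Otx2*, above every P21 library. This too is a single library, and the part of choroid plexus in the change of *Otx2* was not tested. Cerebellar markers summed to between 179 and 249 TPM at E18.5, above their P21 range, with 4 of 7 called lower at P21 and 3 higher, and their part in the change of *En2* was not tested.

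A second set fell by a nearly equal amount. *Gata3* had 27.4, 30.6 and 34.3 TPM in wt/wt and 28.3, 30.3 and 34.0 TPM in hu/hu E18.5 midbrain, and its log2 fold change was -1.45 (SE 0.06, adjusted p = 5.30e-17). *Tal1* had 17.7, 19.7 and 22.7 TPM in wt/wt and 18.4, 20.1 and 23.0 TPM in hu/hu, with -1.43 (SE 0.07, adjusted p = 2.14e-16). *Pax7* had 9.24, 11.1 and 12.5 TPM in wt/wt and 10.4, 11.9 and 12.7 TPM in hu/hu, with -1.44 (SE 0.07, adjusted p = 2.17e-15). Again no E18.5 library of these genes reached down to the P21 range. Endothelial markers, set beside *Tal1* above, summed to between 190 and 257 TPM at E18.5, also above their P21 range, with 3 of 8 called lower at P21 and 2 higher, and their part in the change of *Tal1* was not tested.

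*Tcf7l2*, the most abundant of the 10 genes at E18.5 too, had 156, 184 and 192 TPM in wt/wt and 163, 174 and 190 TPM in hu/hu, and its log2 fold change to P21 was -1.19 (SE 0.05, adjusted p = 8.08e-17). Thalamus markers summed to between 257 and 305 TPM at E18.5, below their P21 range, but the 7 markers split: 5 were called higher at P21, among them *Prkcd* (means of 13.3 and 180 TPM), and *Gbx2* (-0.51, SE 0.07) and *Lef1* (-0.32, SE 0.06) were lower, as *Tcf7l2* was. Their part in its change with age was not tested. *Pou4f1* had 6.68, 7.43 and 8.98 TPM in wt/wt and 5.24, 7.88 and 13.9 TPM in hu/hu (log2 fold change -1.12, SE 0.15, adjusted p = 1.78e-07), the highest value being that of hu/hu replicate 5 alone. *Meis2* had 72.8, 74.8 and 86.3 TPM in wt/wt and 64.7, 77.6 and 86.3 TPM in hu/hu, and its log2 fold change of -0.87 (SE 0.05, adjusted p = 1.89e-14) was the only called one under 2-fold.

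*Gata2* was the member not called between the ages. It had 6.26, 7.07 and 9.21 TPM in wt/wt and 6.65, 7.65 and 8.40 TPM in hu/hu E18.5 midbrain, which overlapped the P21 range (6.0 to 7.78 TPM). Its log2 fold change was 0.07 (95% interval from -0.08 to 0.23, adjusted p = 0.366). In 9 of the 10 genes the TPM ranges of the ages did not overlap, as in 47.5% of the genes with any count. On the TPM scale, where the median gene shifted by -0.22 (log2) from E18.5 to P21, the ratio for *Gata2* was -0.13, so that it was also above the median gene there.

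The GABAergic factors were also set against each other within each library, which needs no scaling between libraries. The pairs were chosen after the values had been seen and restate the changes above, so the ratios are a description with no test. The ratio of *Gata3* to *Gata2* TPM had a geometric mean of 4.15 (range 3.32 to 4.91) in the 12 E18.5 libraries and 1.45 (1.24 to 1.83) in the 8 P21 libraries. The ratio of *Tal1* to *Gata2* was 2.70 (2.0 to 3.37) and 0.950 (0.811 to 1.15), and that of *Sox14* to *Gata3* 0.479 (0.434 to 0.604) and 0.316 (0.258 to 0.390). The ratio of *Tal1* to *Gata3* was 0.649 (0.540 to 0.811) at E18.5 and 0.657 (0.582 to 0.768) at P21, a difference of -0.02 on the log2 scale.

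E18.5 midbrain and P21 cortex differ in region and age together. Here 9 of the 10 genes were called higher in E18.5 midbrain, 8 of them at least 2-fold (*Gata2* had a log2 fold change of 0.85, SE 0.08), and *Meis2* was called lower. Again *Pax7*, *Pou4f1*, *Gata3* and *Sox14* passed the count filter through their midbrain libraries alone, so their difference follows in part from having passed. The median of the 10 was 5.31 against 0.01 for all genes, of which 86.3% were called, 16.2% at least 2-fold higher and 16.9% at least 2-fold lower. *Sox14* was at least 111-fold higher against the floor of 3 counts per cortex library, *Gata3* 391-fold (258 to 625, exact counting interval), *Pou4f1* 178-fold (81.7 to 487) and *Pax7* 2132-fold (590 to 17608). The TPM ranges did not overlap for 9 of the 10 genes, as for 49.8% of the genes with any count. These values share their libraries with both comparisons above.

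*Meis2* was the exception here, and its direction depended on the scale. Its TPM ranges overlapped (64.7 to 86.3 at E18.5, 67.4 to 75.0 in cortex), with means of 76.4 ± 5.91 (SD, n = 12) and 70.6 ± 2.66 (n = 8), a log2 ratio of 0.12. The median gene shifted by 0.27 on that scale, and with TMM scaling the log2 fold change was -0.15 (SE 0.04, adjusted p = 0.00238). *Meis2* was thus slightly above cortex in TPM and slightly below it relative to the median gene.

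In E18.5 midbrain the order of mean levels was *Tcf7l2* (177 ± 11.9 TPM, SD, n = 12), *Meis2* (76.4 ± 5.91), *Otx2* (47.3 ± 5.41), *Gata3* (30.8 ± 2.26), *Tal1* (19.98 ± 1.68), *En2* (17.4 ± 2.33), *Sox14* (14.8 ± 1.53), *Pax7* (11.4 ± 1.01), *Pou4f1* (7.85 ± 2.17) and *Gata2* (7.44 ± 0.906). The ranges of the neighbors *Tal1* and *En2*, *En2* and *Sox14*, *Sox14* and *Pax7*, *Pax7* and *Pou4f1*, and *Pou4f1* and *Gata2* overlapped. *Gata2* thus stood last of the 10 genes at E18.5, while 5 of them were below it at P21.

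No member was called between hu/hu and wt/wt in either age or region, and neither was any other gene in the edgeR test used here. The study, also with edgeR and the same thresholds, reported *Gkn3*, which is not a member, as lower in hu/hu P21 midbrain. Why the test used here did not call it was not examined. The share called was 0% in each of the 3 tissues and for both tests of whether the genotype difference changed with region or age. At an unadjusted p under 0.05, edgeR found 201, 426 and 450 genes in the 3 tissues and 373 and 303 in the 2 tests of a changed difference, and DESeq2, which also called none, found 296, 413, 417, 401 and 393. When a block for the replicate number, which pairs the genotypes, was added, 0, 4 and 0 genes were called in the 3 tissues (813, 735 and 897 at an unadjusted p under 0.05), none of them a member. Without the block, the smallest unadjusted p of a member was 0.230 (*Pax7*) in E18.5 midbrain, 0.225 (*Gata2*) in P21 midbrain and 0.228 (*Otx2*) in cortex.

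The intervals bound how large a genotype difference could be. In E18.5 midbrain the log2 fold change of hu/hu over wt/wt ranged from -0.05 (*Tcf7l2*) to 0.11 (*En2*, 95% interval from -0.08 to 0.30), and all 10 intervals lay within 1.5-fold. In P21 midbrain the values ran from -0.13 (*Gata2*, -0.36 to 0.09) to 0.19 (*Sox14*, -0.20 to 0.58), again with all 10 intervals inside 1.5-fold. In cortex 6 genes could be tested, from *Gata2* (-0.06) to *En2* (0.24, -0.56 to 1.05), and 4 of the intervals lay within 1.5-fold, those of *En2* and *Otx2* being wider. The most tightly bounded was *Meis2* in cortex, at -0.01 (-0.11 to 0.08).

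For the members below the count filter in cortex, *Gata3* had 0.0726 TPM in wt/wt and 0.0847 in hu/hu on average (two-sided exact permutation test on log2(TPM + 0.1), p = 0.686), *Pou4f1* 0.0449 and 0.0438 (exact p = 0.83) and *Pax7* 0.00528 and 0.00541 (exact p = 1.0), where 4 against 4 libraries cannot go below 0.0286. These levels rest on 0 to 5 counts per library and could not show a difference at this depth. The genotype difference did not change detectably between ages for any member, with log2 values from -0.19 (*En2*) to 0.13 (*Sox14*) for P21 minus E18.5, or between regions for the 6 genes tested in cortex, with values from -0.34 (*Otx2*, 95% interval from -0.93 to 0.25) to 0.04 (*Meis2*).

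**Figure D3:**
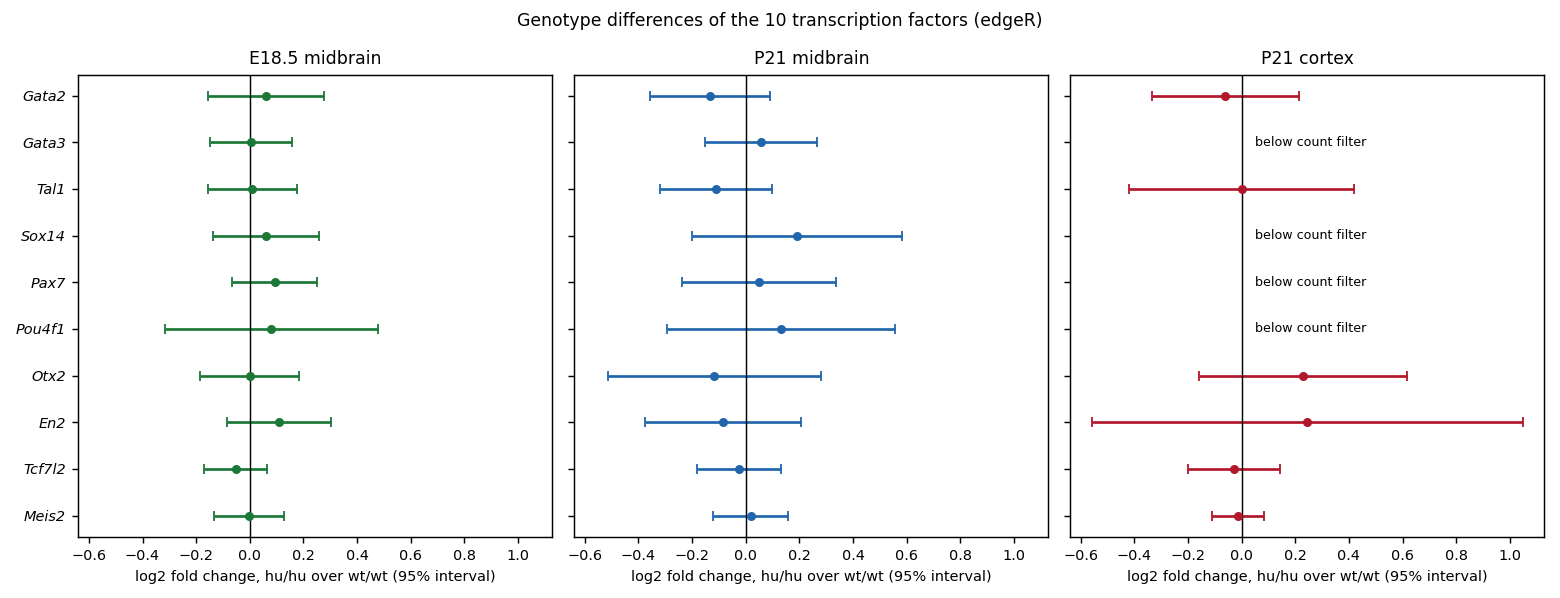
Log2 fold change of hu/hu over wt/wt (horizontal axes, points with 95% intervals from edgeR) for each gene, by panel in E18.5 midbrain (6 libraries against 6), P21 midbrain (4 against 4) and cortex at P21 (4 against 4). Every interval crosses 0, and 4 genes have no point in cortex because their counts were below the filter.

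Dissections differ in how much neighboring tissue they take, so each of 8 members was set against the summed TPM of markers of a tissue or cell type that also makes it, over the libraries of 1 age and centered within genotype. There were 18 such relations (9 pairs at 2 ages), adjusted together, and same-numbered hu/hu and wt/wt libraries deviated together, so the libraries are not fully independent. *Tcf7l2* rose with thalamus markers over the 8 P21 midbrain libraries (r = 0.92, exact permutation p = 0.00211, adjusted p = 0.0299; Spearman's rho 0.83, exact p = 0.0154, adjusted p = 0.126), and r was 0.75 without the 2 libraries farthest from the median. At E18.5 the same relation had r = 0.01 over 12 libraries (permutation p = 0.985). A large part of the thalamus sum was *Slc17a6* (means of 201 TPM at E18.5 and 203 TPM at P21), also a midbrain neuron marker here. The sum is thus not a measure of thalamus alone.

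*Pou4f1* followed habenula markers at E18.5 (r = 0.80, permutation p = 0.00332, adjusted p = 0.0299; rho 0.66, permutation p = 0.0241, adjusted p = 0.126), but r was 0.35 without the 2 farthest libraries, so that the relation rests on them. One of them is hu/hu replicate 5, with 13.9 TPM of *Pou4f1* and a habenula sum of 106 TPM, where the other 11 libraries had 90.6 to 98.6 TPM. The largest part of the habenula sum at E18.5 was *Irx2* (mean 38.3 TPM), which is also among the ventral midbrain factors described below. The sum is thus not a measure of habenula alone. *En2* followed cerebellar markers at E18.5 (r = 0.69, permutation p = 0.0130, adjusted p = 0.0779; rho 0.64, permutation p = 0.0281, adjusted p = 0.126), with r = 0.68 without the 2 farthest libraries. The largest parts of the cerebellar sum at E18.5 were *Cbln1* and *Calb1* (means of 75.8 and 67.6 TPM), while *Gabra6* had a mean of 0.0801 TPM. *Barhl1* (mean 29.0 TPM) is also among the dorsal midbrain factors described below. The cerebellar sum is thus not a measure of cerebellum alone. *Tal1* went against endothelial markers at P21 (r = -0.81, exact p = 0.0214, adjusted p = 0.0962; rho -0.67, exact p = 0.0831, adjusted p = 0.249), with r = -0.43 without the 2 farthest.

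*Otx2* had r = 0.76 with choroid plexus markers over the 8 P21 midbrain libraries (exact permutation p = 0.0324, adjusted p = 0.117; rho 0.83, exact p = 0.0154, adjusted p = 0.126), which missed the adjusted threshold, and r was 0.93 without the 2 farthest. Its highest levels, 13.5 TPM in hu/hu replicate 1 and 12.7 TPM in wt/wt replicate 1, were in the libraries with the highest choroid plexus sums (2883 and 3072 TPM). The other 13 relations had adjusted p from 0.117 to 0.985, among them *Tcf7l2* with oligodendrocyte markers at P21 (r = -0.72, exact p = 0.0484, adjusted p = 0.125; rho -0.76, exact p = 0.0368, adjusted p = 0.132). No rank correlation passed the adjusted threshold.

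**Figure D4:**
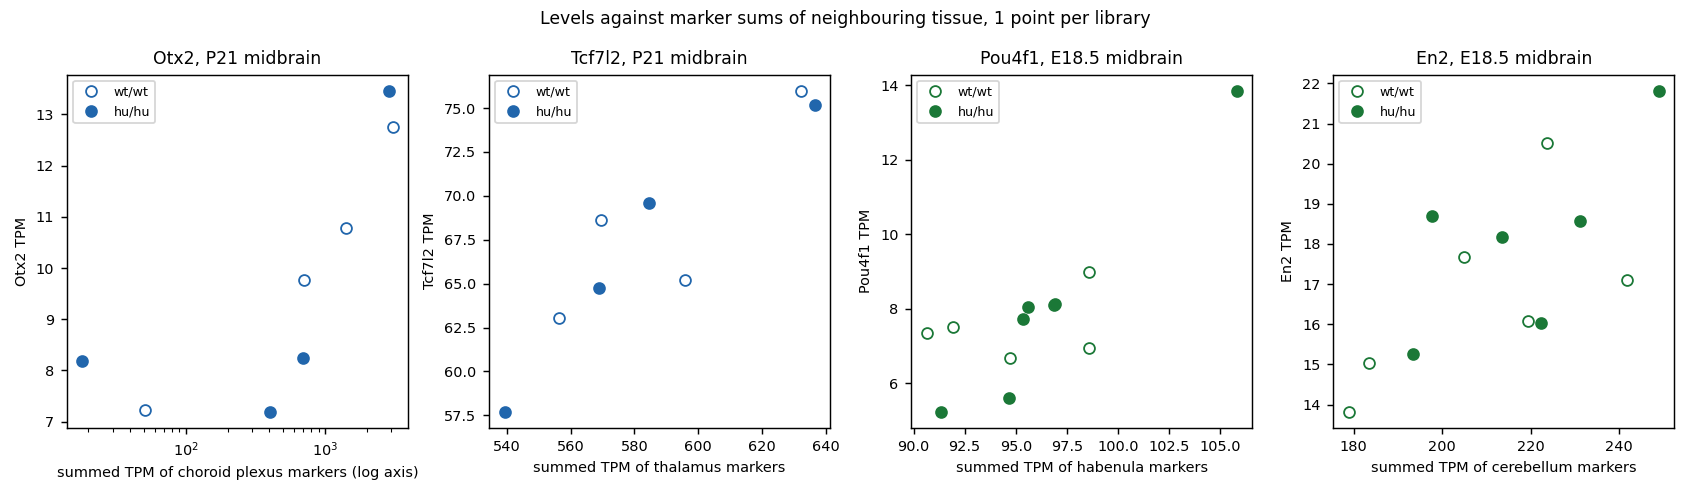
Level in TPM (vertical axes) against the summed TPM of a marker list (horizontal axes, logarithmic for choroid plexus), 1 point per library, wt/wt open and hu/hu filled, for *Otx2* and *Tcf7l2* in P21 midbrain and *Pou4f1* and *En2* in E18.5 midbrain. *Otx2* and *Tcf7l2* are highest where their marker sums are highest, and 1 library, at 13.9 TPM, stands apart for *Pou4f1*.

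Over the 20 midbrain libraries, after the mean of each age and genotype was subtracted from log2 CPM, the genes most like each member among 16330 were found by Pearson's r, as a description. *Meis2* had the closest company, with *Pax8* (r = 0.92), *Hoxb3* (0.90) and *Hoxa2* (0.87), the last 2 being hindbrain genes of the homeobox clusters. *Otx2* was most like *Npr3* (0.87), *Zfp229* (0.82) and *Trpm5* (0.81), and *Sox14* most like *Islr2* (0.86), *Nupl2* (0.82) and *C230052I12Rik* (0.81). *Tcf7l2* was most like *Pcdh10* (0.83), *Rgs8* (0.82) and *Ntng1* (0.80), *Tal1* like *Sstr1* (0.75), *Rorb* (0.75) and *Rgs8* (0.73), and *Pax7* like *Tmed1* (0.81), *Grin2b* (0.79) and *Ntng1* (0.78). For *Gata3* these were *Pldn* (0.82), *Zfp39* (0.80) and *Tfap2d* (0.78), for *Gata2* *Lrrfip1* (0.79), *Gm628* (0.74) and *Pcdhb11* (0.73), for *En2* *Klra2* (0.80), *Pi4k2a* (0.79) and *X99384* (0.79), and for *Pou4f1* *Cd59b* (0.78), *Hist1h4j* (0.77) and *Gm1568* (0.77).

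Other genes of the same programs were taken from lists of names, which were drawn up with earlier results of these data known. Over all genes tested, 75.5% were called between P21 midbrain and cortex, 7.82% at least 2-fold higher and 7.59% at least 2-fold lower. With age 85.4% were called, 14.7% at least 2-fold lower and 15.9% at least 2-fold higher at P21. Of 10 tested dorsal midbrain and tectum factors, 9 were higher in P21 midbrain than in cortex, each at least 2-fold, and none was lower. The largest log2 fold changes were those of *Pou4f2* (9.55, SE 0.35) and *Pax3* (7.23, SE 0.40). In cortex *Pou4f2* was at 0 TPM in every library and *Pax3* had a mean of 0.00694 TPM, so the sizes of these differences are poorly determined. The same limit holds for *Irx2*, *En1* and *Pax8* below, with cortex means of 0.0564, 0.0313 and 0.0595 TPM. All 11 dorsal factors tested with age were lower at P21 than at E18.5 midbrain, each at least 2-fold, as *Pax7* and *Pou4f1* were. Of 15 ventral midbrain factors, 13 were higher in P21 midbrain than in cortex, each at least 2-fold, among them *Irx2* (8.44, SE 0.14). Only 1 was lower, the dopamine neuron factor *Nr4a2* (-1.99, SE 0.05). With age 14 of the ventral factors were lower, 7 of them at least 2-fold, and 1 was higher.

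The GABAergic list without the members split. Of 10 tested, 7 were higher in P21 midbrain, led by *Lhx1* (5.15, SE 0.17) and *Lhx5* (4.003, SE 0.13), and 2 were lower, among them *Zfpm1* (-0.23, SE 0.07), whose protein binds GATA factors. Only 3 were at least 2-fold higher and 0 at least 2-fold lower, and the median log2 fold change of the 10 was 0.34. With age 5 were higher and 6 lower of 11, among which 2 were at least 2-fold higher and 5 at least 2-fold lower. Of 9 boundary factors tested, 5 were higher in P21 midbrain, each at least 2-fold, led by *En1* (7.22, SE 0.26), the paralog of *En2*, and *Pax8* (5.94, SE 0.34). Another 4 were lower, 1 of them at least 2-fold, led by *Wnt1* (-2.62, SE 0.31) and *Otx1* (-0.78, SE 0.10), the paralog of *Otx2*. With age 8 boundary factors were lower, 5 of them at least 2-fold, and none was higher.

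Of the 11 TCF and TALE partners of *Tcf7l2* and *Meis2*, 4 were higher and 7 lower in P21 midbrain than in cortex, with a median log2 fold change of -0.17. Only 2 were at least 2-fold higher and 0 at least 2-fold lower. *Lef1*, a TCF paralog, was higher (2.41, SE 0.08), as *Tcf7l2* was. *Meis1* was higher (1.55, SE 0.07), against the direction of *Meis2*, while *Pbx4* (-0.77, SE 0.09) was lower with it. With age 1 of the partners was higher and 9 were lower, 3 of them at least 2-fold. Every call on these list genes comes from edgeR with adjusted p under 0.1.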

How the data were processed

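Polyadenylated RNA was sequenced in pairs, and the authors used OLego to align them to mm10 and Quantas to count them over exons; the gene annotation version and the use of strand are not given in the sources used here. The authors deposited expected counts, exon lengths and RPKM for each library; RPKM followed from the counts and was not used. Expected counts were rounded for the tests (R 4.3.3, edgeR 4.0.16, limma 3.58.1, DESeq2 1.42.0), with TMM factors and filterByExpr on the groups compared. Contrasts of region or age averaged the genotypes, and no covariate was used. All genes entered each fit. The study describes its replicates as biological and its RNA-seq as holding males and females in equal numbers, but the labels tie no library to an animal or sex, so sex was not a covariate and p-values measure the spread between these libraries. Same-numbered hu/hu and wt/wt libraries deviated together (every correlation over 0.1, lowest 0.170), so the numbers pair the genotypes.

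The 10 genes, the lists and the tests were chosen with earlier results of these data known. Of each list, the called genes with the largest change between P21 midbrain and cortex were named, up to 2 per direction; the values of some of them are not reported here. Of 143 list genes 141 were found. Correlations used log2(TPM + 0.1). Positions, promoters and start sites come from RefSeq on GRCm38.p6. Alternatives were RLE factors, DESeq2, other filters and thresholds, all 28 libraries in 1 fit, single genotypes, a replicate block, other pseudocounts and each library left out, and the code was tested on simulated data.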

Additional observations from a re-analysis of the deposited data

Results flagged for a closer look

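Of 58 groups of 4 to 6 libraries tested for a library far from the others (Dixon's test on TPM; groups at 0 throughout are left out), 8 held one, where chance flags about 1 in 20. In E18.5 midbrain, *Pou4f1* was at 13.9 TPM in hu/hu replicate 5, where the other 5 libraries had 5.24 to 8.13 TPM, and *Meis2* was at 86.3 TPM in wt/wt replicate 2, where the others had 72.8 to 75.9 TPM. In P21 midbrain, *Otx2* was at 13.5 TPM in hu/hu replicate 1 (others 7.20 to 8.25 TPM) and *Gata3* at 8.84 TPM in wt/wt replicate 1 (others 9.75 to 9.90 TPM). In cortex, *Tcf7l2* was at 4.66 TPM in hu/hu replicate 4 (others 4.767 to 4.771 TPM). The remaining flags rest on single counts in cortex: *Pax7* at 0.0217 TPM in hu/hu replicate 4 and 0.0211 TPM in wt/wt replicate 3, each where the other 3 libraries were at 0, and *Pou4f1* at 0 in hu/hu replicate 3 (others 0.0531 to 0.0633 TPM).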

How the results depend on the processing

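For contrasts of region or age, 825 of 828 recomputed log2 fold changes of the members kept their direction and their side of the threshold. The exceptions were *Gata2* between the ages, which was not called, at -0.0053 with hu/hu libraries alone and -0.13 as a log2 ratio of mean TPM, and *Meis2* between E18.5 midbrain and cortex, at 0.12 as a log2 ratio of mean TPM (these ratios were added after seeing the data). Requiring at least 10 counts in every library left 5 members called against cortex in both contrasts, 3 of them at least 2-fold higher, because *Pax7*, *Pou4f1*, *Gata3*, *Sox14* and *En2* were then not tested. At 4-fold, 0 members were lower in P21 midbrain than in cortex and 3 were lower at P21 than at E18.5.

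Between genotypes no member was called under any alternative, and 39 of 429 recomputed values of members changed sign, all near 0. Without filter *Otx2* was at 0.0016 in E18.5 midbrain, and in cortex *Tal1* was at 0.00031 with 10 counts in every library and 0.0068 with the replicate block. The replicate block changed no other sign or call of a member. Between regions same-numbered libraries deviated in opposite directions (correlations from -0.171 to -0.109 in hu/hu and -0.201 to -0.102 in wt/wt), and the block changed no call between regions. Between ages the correlations were mixed, from -0.145 to 0.147 in hu/hu and -0.044 to 0.107 in wt/wt. Leaving out 1 library, values that changed sign ranged, in E18.5 midbrain, from -0.073 to 0.041 for *Otx2*, -0.13 to 0.17 for *Pou4f1* (negative without hu/hu replicate 5 only), -0.032 to 0.046 for *Gata3*, -0.027 to 0.058 for *Tal1* and -0.035 to 0.045 for *Meis2*. In P21 midbrain they ranged from -0.34 to 0.0018 for *Otx2*, -0.032 to 0.16 for *Pax7*, -0.0081 to 0.12 for *Gata3*, -0.16 to 0.021 for *En2*, -0.091 to 0.042 for *Tcf7l2* and -0.034 to 0.065 for *Meis2*. In cortex they ranged from -0.12 to 0.017 for *Gata2*, -0.15 to 0.12 for *Tal1*, -0.082 to 0.0059 for *Tcf7l2* and -0.039 to 0.011 for *Meis2*.

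On log2 CPM, r at E18.5 turned to -0.015 for *Gata2* with endothelial and -0.069 for *Tcf7l2* with oligodendrocyte markers, and *Gata3* with hindbrain and serotonin neuron markers passed the threshold (r = -0.72). With a pseudocount of 1, *Pou4f1* in cortex was at -0.00036 between genotypes. With 0 to 5 counts per library, cortex levels of *Pax7*, *Pou4f1*, *Gata3* and *Sox14* bear no statement on genotype.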
